A study of Mus musculus with 36 samples.

Results

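The postimplantation epiblast genes and SoxC factors followed here are 5 genes, Pou3f1, Fgf5, Sall2, Sox4 and Sox11. They were chosen by name, as all probe sets whose platform annotation gives 1 of these 5 symbols, which yields 10 of the 24833 probe sets that are not controls, and 5 of the 13675 genes that have a probe set with 1 symbol. Pou3f1 and Fgf5 each have 1 probe set on chip A and Sall2 has 1 on chip B, while Sox4 has 3 and Sox11 has 4 over both chips. Of the 10 probe sets, 8 passed a brightness filter that kept, on each chip, the brighter 60% by mean log2 signal. The Fgf5 probe set and 1 Sox11 probe set (117084_at) fell under it and are described without a call.

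RNA was taken from mouse embryonic stem cells of the R1/Oct4:eGFP line, in which green fluorescent protein reports Oct4 (Pou5f1), the transcription factor of the undifferentiated state. In 18 RNA samples, each measured on both array types, A and B, of an Affymetrix mouse set (36 arrays), cells had been sorted by fluorescence into low, medium and high gates. Per the labels, the cells were kept on mitomycin-treated fibroblasts, then plated on gelatin, at densities that differed with the length of culture. The control arm (3 samples, 1 medium and 2 high gate) had 1000 U/mL leukemia inhibitory factor (LIF), the cytokine that sustains self-renewal, and was collected 2 days after plating. The other arms lacked LIF: day 1 without LIF (4 samples, 1 low, 1 medium and 2 high gate), day 3 and day 5 without LIF (3 each, 1 per gate), and 2 arms given retinoic acid (RA) at 0.1 uM, for 1 day (3, 1 per gate) or 2 days (2, low and medium gate). All groups carry the same reporter and share 1 parental line. The gates of an arm serve as its replicates, and the labels do not say that samples came from separate cultures, so p-values measure a spread that may be technical.

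The 5 genes belong to the exit from the naive pluripotent state. Pou3f1 (also called Oct6) is a POU-domain transcription factor of the postimplantation epiblast that favours neural fate, and Fgf5, a secreted fibroblast growth factor, is a classical marker of that epiblast. Sall2 is a zinc-finger transcription factor of the Spalt family, known from the developing nervous system. Sox4 and Sox11 are SoxC proteins, transcription factors with an HMG box that act in progenitors and in newly formed neurons. On mouse assembly GRCm38.p6 the genes lie at chr4:124657646-124660655 (Pou3f1), chr5:98254184-98277033 (Fgf5), chr14:52311177-52328670 (Sall2), chr13:28948919-28953699 (Sox4) and chr12:27334268-27342718 (Sox11).

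Because Sall2, Sox4 and Sox11 each had probe sets higher than in control cells at day 3, at day 5 and in both RA arms, their promoter windows are shown, from 250 bases before to 50 bases after a RefSeq start (300 bases, GRCm38.p6), 5′ to 3′ on the gene's strand, which is the minus strand for all 3. The RefSeq table matched 4 of the 5 genes with 5 windows, Sall2 having 2 starts and Pou3f1 none. The windows are chr13:28953650-28953949 (Sox4), chr12:27342669-27342968 (Sox11), chr14:52328621-52328920 (Sall2, upstream start) and chr14:52316274-52316573 (Sall2, downstream start). Capitals mark matches, on either strand, to the motifs searched, which were ATGCAAAT (POU octamer), ACAAAG and ACAATG (SOX cores), AGGTCA (retinoic acid receptor half-site), CCAAT and TATAAA.
Sox4: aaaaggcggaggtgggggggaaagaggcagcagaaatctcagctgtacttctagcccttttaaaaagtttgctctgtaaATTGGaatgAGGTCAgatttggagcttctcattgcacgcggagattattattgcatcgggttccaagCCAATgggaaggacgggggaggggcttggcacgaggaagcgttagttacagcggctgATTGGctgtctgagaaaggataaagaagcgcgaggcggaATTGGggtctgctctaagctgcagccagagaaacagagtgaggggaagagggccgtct
Sox11: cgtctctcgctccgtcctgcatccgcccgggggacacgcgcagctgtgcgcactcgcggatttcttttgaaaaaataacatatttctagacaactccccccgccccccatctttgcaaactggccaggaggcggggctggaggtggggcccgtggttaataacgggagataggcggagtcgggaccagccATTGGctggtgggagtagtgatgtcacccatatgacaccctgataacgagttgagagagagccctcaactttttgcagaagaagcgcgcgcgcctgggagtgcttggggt
Sall2 upstream start: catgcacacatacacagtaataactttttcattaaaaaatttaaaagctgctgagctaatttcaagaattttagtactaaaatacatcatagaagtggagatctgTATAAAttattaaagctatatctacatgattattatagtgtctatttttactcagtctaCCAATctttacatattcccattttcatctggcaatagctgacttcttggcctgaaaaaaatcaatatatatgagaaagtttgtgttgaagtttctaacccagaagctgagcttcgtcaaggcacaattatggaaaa
Sall2 downstream start: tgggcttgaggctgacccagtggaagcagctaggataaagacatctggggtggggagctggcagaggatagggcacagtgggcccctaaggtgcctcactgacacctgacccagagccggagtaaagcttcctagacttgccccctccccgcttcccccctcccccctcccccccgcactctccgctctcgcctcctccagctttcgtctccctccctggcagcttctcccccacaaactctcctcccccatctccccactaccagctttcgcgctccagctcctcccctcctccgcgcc
The Sox4 window holds 4 CCAAT matches (on the other strand these read ATTGG), at -171 to -167, -104 to -100, -47 to -43 and -8 to -4 from the start, and 1.06% of the 32851 RefSeq promoters of this length hold at least as many. It also holds AGGTCA at -162 to -157, which 16.3% of promoters hold. Sox11 has CCAAT at -60 to -56, and the upstream Sall2 window has CCAAT at -86 to -82 and TATAAA at -145 to -140. CCAAT occurs in 37.4% and TATAAA in 13.6% of all promoters. The GC-rich downstream Sall2 window (65.0% GC, against 30.3% upstream) holds none of the motifs. The Fgf5 window, chr5:98253934-98254233, has ACAAAG at -27 to -22, a motif in 18.7% of promoters, and TATAAA at 35 to 40. ACAATG (12.6% of promoters) and the octamer (1.74%) have no match in any of the 5 windows. A match is a description of letters and not a bound site.

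Arrays were scanned on 4 days, per the run records. On the first, called scan 1, were a control and a day 1 library without LIF, each high gate replicate 2. The day 3 arm and the day 1 RA arm made up scan 2, and the remaining 2 controls scan 4. Scan 3 comprised the day 5 and day 2 RA arms with the remaining 3 libraries of day 1 without LIF. Median signals were 37.7 to 48.7 per array on chip A and 65.5 to 76.3 on chip B, and precision is limited by the few arrays per arm. The day 1 library of scan 1 went against its label. Cyp26a1, an enzyme that degrades RA and is induced by it, had a signal of 463 there, while its 3 companions without LIF had 11.3 to 13.8 and the day 1 RA libraries 84.2 to 112. Its Pou5f1 signal was 1130, against 2320 to 2520 in those companions, and over the tested probe sets it correlated more with day 1 RA libraries (mean r 0.967 on chip A and 0.932 on chip B) than with them (0.943 and 0.887). Its mean r with day 3 without LIF (0.960 and 0.923) and with day 2 RA libraries (0.962 and 0.915) was also above that with its companions. This library, called the doubted one below, was thus singled out after the data were seen. Where a difference of a member printed for day 1 without LIF loses or gains a call, or moves by over 1.5 times, without this library, both values are given. Cyp26a1 also reached 1440 to 1670 in day 5 cells, which had no added RA.

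Pou3f1 had its highest level at day 3 without LIF and was higher than in control cells in both day 1 arms, at day 3 and at day 2 with RA, while its smaller difference at day 5 passed the test only narrowly. The probe set 102652_at gave signals (MAS5 intensities scaled per array) of 6.84, 13.4 and 31.3 in the control libraries and of 38.9, 40.1, 45.4 and 55.1 at day 1 without LIF. At day 3 they were 59.2, 72.8 and 82.4, and at day 5 they were 17.8, 32.6 and 35.7. With RA they were 44.5, 44.9 and 54.9 at day 1 and 48.4 and 51.3 at day 2. Control and day 5 overlap, through the control of scan 1, the other arms all lie above the controls, and all day 3 values exceed all others of the gene. The controls at 6.84 and 13.4 lie under the cut of the chip A brightness filter, a mean signal of 23.9 taken on the log2 scale. Pou3f1 thus passed that filter through arms where it is higher. In an additive limma fit of arm and gate over all 18 samples, on log2(signal + 4), the difference was 1.40 ± 0.28 at day 1 without LIF over control (SE, adjusted p = 0.0217) and 2.08 ± 0.31 at day 3 (adjusted p = 0.000903). It was 0.84 ± 0.31 at day 5 (adjusted p = 0.0466), 1.55 ± 0.31 at day 1 with RA (adjusted p = 0.00303) and 1.72 ± 0.36 at day 2 with RA (adjusted p = 0.00475). When 1 of the 18 libraries was left out at a time, the day 5 call was lost in 14 of the 18 fits (0.46 without control medium, adjusted p = 0.313) and the call at day 1 without LIF in 3. Pou3f1 fell at day 5 against day 3, by 1.24 ± 0.30 on the log2 scale (adjusted p = 0.00748), one of the 10.2% of probe sets that were lower in that comparison. These libraries were scanned on different days. Against the 3 day 1 libraries of its own scan day, day 5 differed by -0.66 ± 0.24 (adjusted p = 0.0711), and with scan day as a block the difference from control became -0.34 at day 5 (adjusted p = 0.594) and 0.32 at day 1 (adjusted p = 0.715). Addition of 4 to each signal understates folds of dim probe sets such as this one.

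Fgf5 was dim throughout, and its highest values lay at days 3 and 5. Signals of 98845_at were 2.37, 3.86 and 8.01 in control cells, 7.21, 7.79, 12.3 and 16.7 at day 1 without LIF, 14.2, 16.7 and 28.1 at day 3 and 22.3, 28.8 and 29.1 at day 5. With RA they were 3.12, 18.4 and 21.6 at day 1 and 3.03 and 16.1 at day 2. All day 3 and day 5 values lie above all controls, while the RA arms each have 1 library among the controls. In a fit without the brightness filter the log2 difference from control was 0.84 at day 1 (95% interval -0.14 to 1.82), 1.54 at day 3 (0.47 to 2.61) and 1.95 at day 5 (0.89 to 3.02). With RA it was 1.02 at day 1 (-0.05 to 2.08) and 0.67 at day 2 (-0.58 to 1.92). Among libraries of scan 3, day 5 differed from day 1 without LIF by 1.13 (0.42 to 1.84), and day 2 with RA from day 5 by -1.50 (-2.33 to -0.67).

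**Figure D1:**
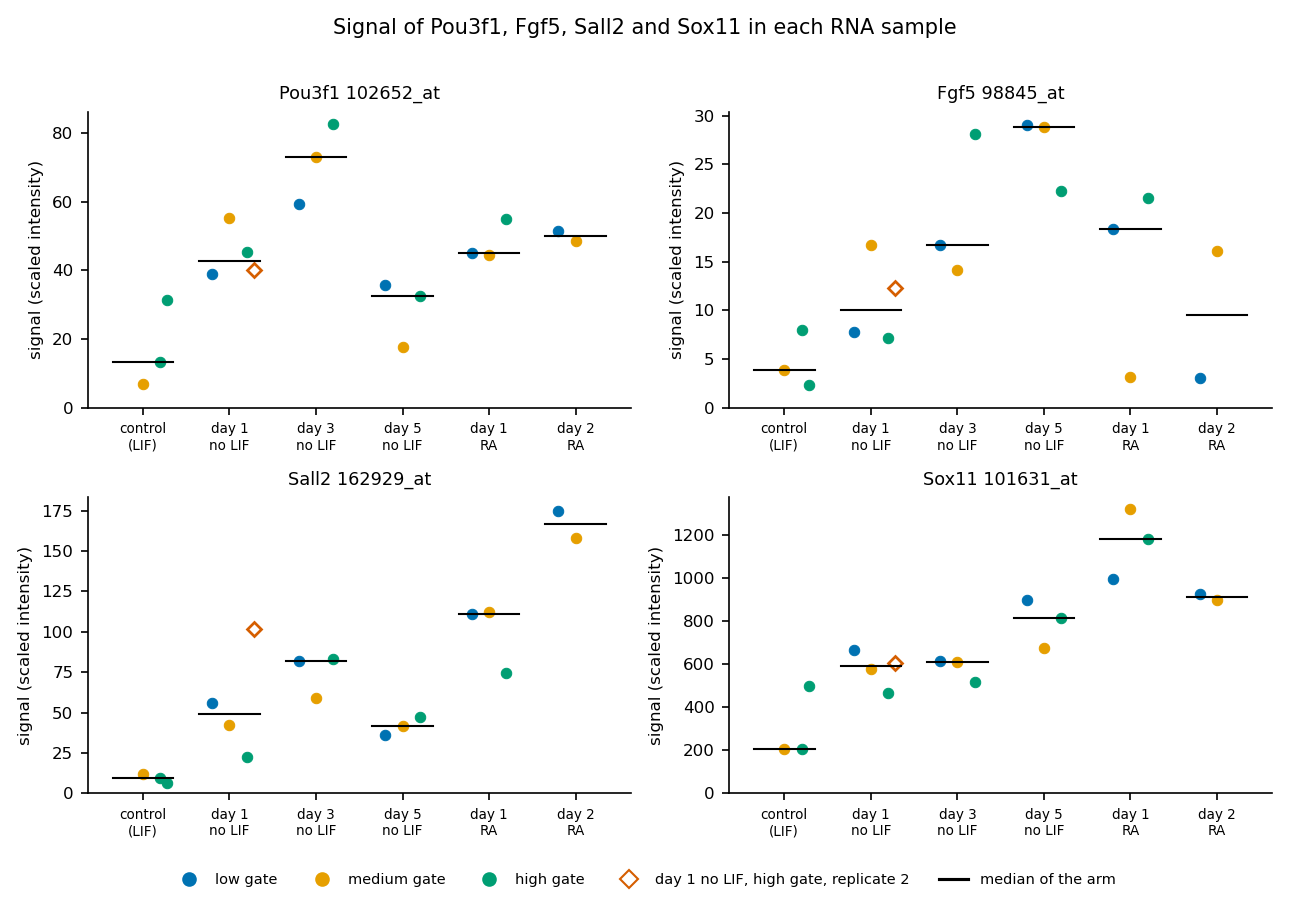
Signal (scaled MAS5 intensity, linear axis from 0) of Pou3f1, Fgf5, Sall2 and Sox11 (101631_at) in each RNA sample, by arm, with gates as colours and a bar at the median of the arm. Pou3f1 is highest at day 3 (59.2 to 82.4), Sall2 at day 2 with RA (158 and 175) and Sox11 at day 1 with RA (997 to 1320), and the open diamond is the day 1 library that went against its label.

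Sall2 was low in control cells and highest with RA. Its probe set 162929_at gave 6.33, 9.33 and 12.2 in control cells, far below the array medians, and 22.6, 42.6, 55.9 and 102 at day 1 without LIF, where 102 belongs to the doubted library. It gave 58.7, 81.7 and 83.1 at day 3 and 36.4, 41.4 and 47.0 at day 5, then 74.6, 111 and 112 at day 1 with RA and 158 and 175 at day 2 with RA. Every library of the other arms lies above every control, and both day 2 RA libraries lie above all others. The control signals lie under the cut of the chip B brightness filter, a mean signal of 43.6 taken on the log2 scale. Sall2 thus passed that filter only through arms where it is higher. On log2(signal + 7), Sall2 was higher than in control cells by 1.78 ± 0.34 at day 1 without LIF (limma, adjusted p = 0.0269), 2.28 ± 0.36 at day 3 (adjusted p = 0.00251) and 1.54 ± 0.36 at day 5 (adjusted p = 0.00782). The difference was 2.65 ± 0.36 at day 1 with RA (adjusted p = 0.000612) and 3.35 ± 0.43 at day 2 with RA (adjusted p = 0.000634), sizes that depend on the added 7 because the control signals are so low. Without the doubted library it was 1.37 ± 0.25 at day 1 without LIF (adjusted p = 0.0256). Among scan 3 libraries, Sall2 rose at day 2 with RA against day 1 without LIF (1.82 ± 0.32, adjusted p = 0.0242) and against day 5 (1.73 ± 0.32, adjusted p = 0.0448), and day 5 differed from day 1 by 0.10 ± 0.27 (adjusted p = 0.825). Without the doubted library, Sall2 fell at day 5 against day 3 by 0.74 ± 0.24 (adjusted p = 0.0487), one of 12.5% of probe sets that were lower. With all libraries the adjusted p of that difference was 0.187, and day 3 and day 5 were scanned on different days.

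Sox4 had its lowest level in control cells and its highest at day 2 with RA on all 3 of its probe sets. The probe set 162737_i_at gave 100, 104 and 148 in control cells, 275, 300, 330 and 894 (the doubted library) at day 1 without LIF, 390, 547 and 1100 at day 3 and 860, 1260 and 1350 at day 5. It gave 887, 929 and 1030 at day 1 with RA and 1620 and 1660 at day 2 with RA. No library of another arm overlaps the controls, and both day 2 RA libraries lie above the rest. For 160109_at the signals were 148, 157 and 181 in control cells, 170, 209, 259 and 568 (the doubted library) at day 1 without LIF, 312, 327 and 368 at day 3, 533, 609 and 728 at day 5, 440, 477 and 539 at day 1 with RA, and 736 and 1010 at day 2 with RA. The probe set 101430_at was dimmer, with 22.2 to 39.7 in control cells, 39.0 to 97.6 at day 1 without LIF, 50.6 to 87.3 at day 3 and 63.5 to 110 at day 5. It spanned 64.5 to 71.7 at day 1 with RA and 135 to 152 at day 2 with RA. The 3 probe sets ordered the arms alike, from control over day 1 and day 3 without LIF, day 1 with RA and day 5 to day 2 with RA. They were read from the same 18 RNA samples, over which they correlated at Pearson r of 0.914 to 0.935. With all libraries, no neighbouring arms in that order differed past the test.

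All 3 Sox4 probe sets were higher than control at day 3, at day 5 and in both RA arms. For 162737_i_at the limma difference from control was 2.30 ± 0.43 at day 3 (adjusted p = 0.00544), 3.17 ± 0.43 or 9.02-fold at day 5 (adjusted p = 0.000163), 2.91 ± 0.43 at day 1 with RA (adjusted p = 0.000921) and 3.69 ± 0.50 or 12.9-fold at day 2 with RA (adjusted p = 0.000789). The other 2 probe sets had smaller differences. At day 3 they were 1.03 and 1.08, at day 5 they were 1.48 and 1.96, at day 1 with RA 1.12 and 1.61, and at day 2 with RA 2.14 and 2.48 (101430_at, then 160109_at, each past the test). When 1 of the 18 libraries was left out at a time, the day 3 call was lost in 13 fits for 101430_at and in 9 for 160109_at. The call of 101430_at at day 1 with RA was lost in 4, and the other Sox4 calls against control in none. At day 1 without LIF none of the 3 passed (0.77, 0.76 and 1.67, adjusted p = 0.184, 0.202 and 0.0555), and without the doubted library they gave 0.43, 0.35 and 1.20 (adjusted p = 0.320, 0.317 and 0.0593). Among the libraries of scan 3 all 3 rose at day 5 against day 1 without LIF, by 0.98 ± 0.16 (101430_at, adjusted p = 0.00322), 1.54 ± 0.21 (160109_at, adjusted p = 0.00158) and 1.89 ± 0.20 (162737_i_at, adjusted p = 0.00246). At day 2 with RA against day 1 without LIF, the same scan day gave 1.50, 1.97 and 2.36 (adjusted p = 0.00283, 0.00291 and 0.00812). Day 2 with RA exceeded day 5 by 0.52, 0.43 and 0.46 there, and none of these passed (adjusted p = 0.138, 0.338 and 0.331). In the 13 libraries without RA, with control as day 0, Sox4 rose per day by 0.25 ± 0.07, 0.36 ± 0.07 and 0.54 ± 0.10 on the log2 scale (adjusted p = 0.0168, 0.0017 and 0.00375), and without the doubted library by 0.27, 0.38 and 0.57.

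**Figure D2:**
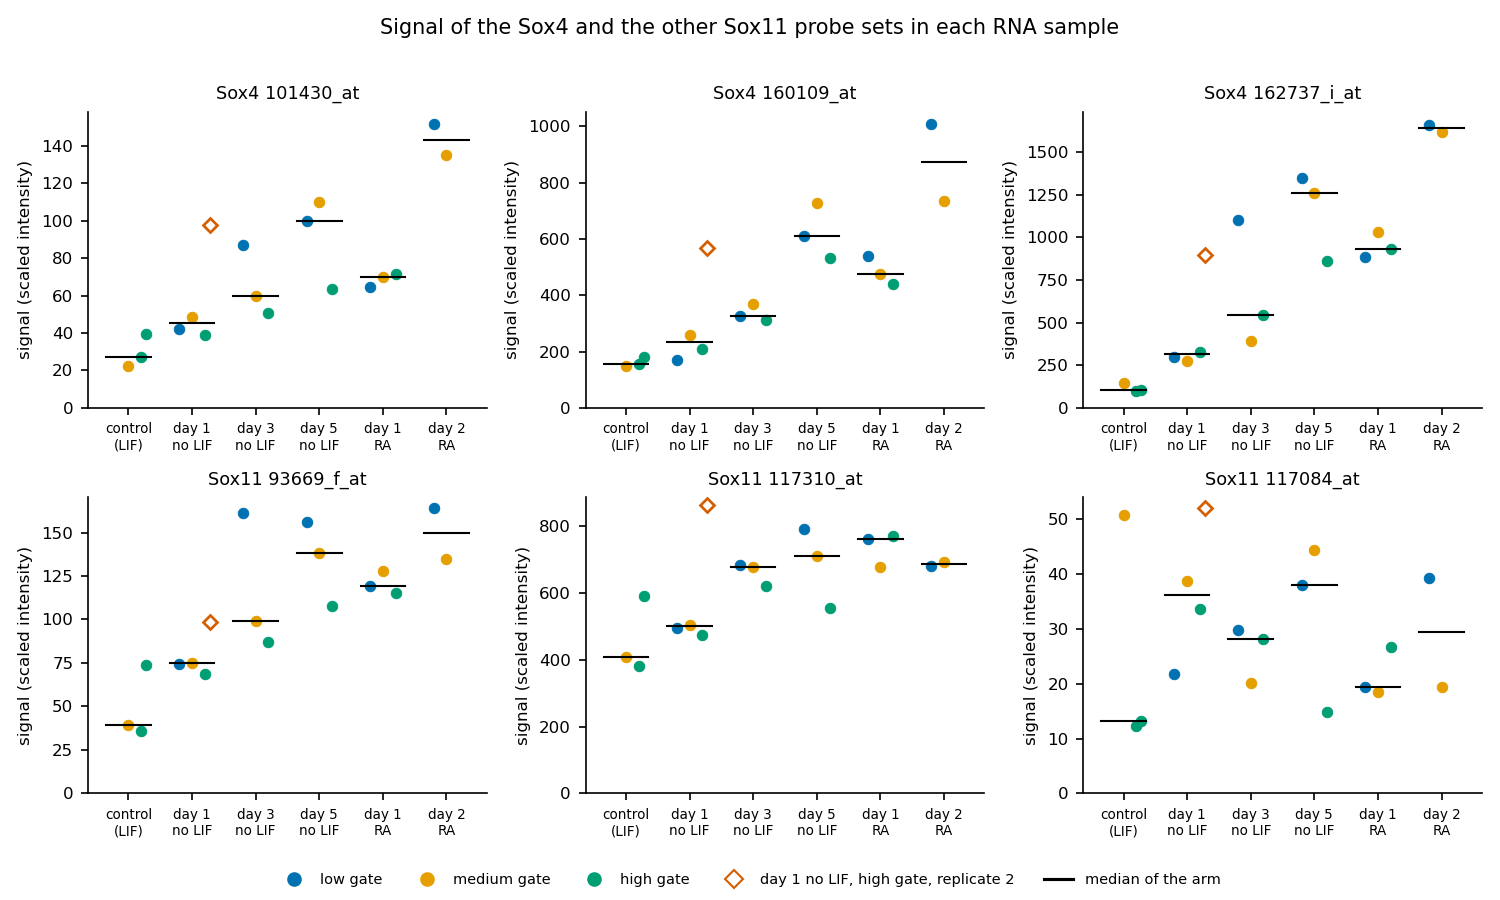
Signal (scaled MAS5 intensity, linear axis from 0) of the 3 Sox4 probe sets and the other 3 Sox11 probe sets in each RNA sample, by arm, with gates as colours, a bar at the median of the arm and an open diamond for the doubted day 1 library. The Sox4 panels share 1 order of arms, and the dim 117084_at panel (12.2 to 52.1) has none.

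Sox11 was highest at day 1 with RA on its brightest chip A probe set, and its 4 probe sets did not move alike. The probe set 101631_at gave 207, 208 and 499 in control cells, 467, 577, 603 and 664 at day 1 without LIF, 516, 608 and 614 at day 3 and 676, 813 and 898 at day 5. It gave 997, 1180 and 1320 at day 1 with RA and 898 and 927 at day 2 with RA. The control of scan 1 (499) lies among the day 1 libraries, and all day 1 RA libraries lie above all others. Its limma difference from control was 1.01 ± 0.26 at day 1 without LIF (adjusted p = 0.0491), 1.03 ± 0.28 at day 3 (adjusted p = 0.0246), 1.48 ± 0.28 at day 5 (adjusted p = 0.000953), 2.02 ± 0.28 or 4.07-fold at day 1 with RA (adjusted p = 0.000309) and 1.69 ± 0.32 at day 2 with RA (adjusted p = 0.00289). The call at day 1 without LIF was lost in 16 of the 18 fits that each left out 1 library. The fit without the doubted library was among them (0.99 ± 0.28, adjusted p = 0.0619). The day 3 call was lost in 5 of the 18. With scan day as a block the difference from control was 0.27 at day 1 without LIF (adjusted p = 0.666), 0.75 at day 5 (adjusted p = 0.0855) and 0.92 at day 2 with RA (adjusted p = 0.0587). Among scan 3 libraries, Sox11 rose at day 5 against day 1 without LIF by 0.48 ± 0.16 (101631_at, adjusted p = 0.0452), a call lost in 7 of the 8 fits that left out 1 library. On the same scan day, day 2 with RA exceeded day 1 by 0.63 ± 0.18 (adjusted p = 0.0552).

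The design of 93669_f_at, as its suffix says, allows hybridisation of related sequences. It ranged over 35.6 to 73.9 in control cells, 68.6 to 98.4 at day 1 without LIF, 86.9 to 161 at day 3, 108 to 156 at day 5, 115 to 128 at day 1 with RA and 135 to 164 at day 2 with RA. It was higher than control at day 3 by 1.10 (adjusted p = 0.0119), at day 5 by 1.34 (adjusted p = 0.00107), at day 1 with RA by 1.21 (adjusted p = 0.00445) and at day 2 with RA by 1.46 (adjusted p = 0.00414), with SE of 0.26, 0.26, 0.26 and 0.30. At day 1 without LIF the difference was 0.63 (adjusted p = 0.175). On scan 3 it rose by 0.83 at day 5 (adjusted p = 0.00346) and by 0.91 at day 2 with RA (adjusted p = 0.0113), both against day 1 without LIF. The bright probe set 117310_at, with 381 to 590 in control cells and 475 to 863 in the other arms, differed from control by 0.32 to 0.70 over the 5 arms and passed in none (adjusted p = 0.0621 at the lowest, day 1 with RA). It gave, without the doubted library, 0.08 at day 1 without LIF (adjusted p = 0.854) and passed at day 5 (0.54, adjusted p = 0.0430) and at day 1 with RA (0.66, adjusted p = 0.0225). The dim 117084_at ran from 12.2 to 52.1, with controls at 12.2, 13.2 and 50.8, and correlated with 101631_at at r = -0.078, against 0.859 for 93669_f_at and 0.769 for 117310_at. With the Sox4 probe sets 101430_at, 160109_at and 162737_i_at, 93669_f_at correlated at 0.914, 0.855 and 0.914. Its order of arms was that of Sox4 and not that of 101631_at. With Sox11 117310_at it correlated at 0.85, and with all libraries no neighbouring arms in its order differed past the test. Whether 93669_f_at also reads Sox4 was not tested, so its values cannot be assigned to Sox11 alone. Which Sox11 transcript ends these probe sets read was not tested. Per day without LIF, Sox11 rose by 0.22 ± 0.07 (101631_at, adjusted p = 0.0268) and 0.24 ± 0.05 (93669_f_at, adjusted p = 0.0061), while 117310_at gave 0.10 ± 0.05 (adjusted p = 0.179), Pou3f1 0.11 ± 0.12 (adjusted p = 0.543) and Sall2 0.22 ± 0.13 (adjusted p = 0.259). Thus 5 of 8 probe sets rose with days, where 12.0% of all tested probe sets did. The count was 5 without the doubted library (13.3% of all), and 3 without control medium (10.8% of all) or day 5 medium (7.03%).

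Counted over the 8 tested probe sets, 3 were higher at day 1 without LIF than in control cells, where 1.15% of the 14900 tested probe sets were higher. At day 3 the count was 7, against 6.53% of all probe sets. At day 5 it was 7 (15.4% of all), at day 1 with RA 7 (10.7%) and at day 2 with RA 7 (8.05%), and no member was lower in any of these arms. The median difference from control of the 8 was 0.89, 1.09 and 1.48 at days 1, 3 and 5 without LIF and 1.58 and 1.93 at days 1 and 2 with RA, beside medians of all tested probe sets of at most 0.06. The genes were chosen by name with earlier results known, the comparisons share the control libraries, and Sox4 and Sox11 give 6 of the 8 probe sets, so these counts describe the set. Pou3f1 and Sall2 are among the 8 only through arms where they are higher than in control cells. Without the doubted library 2 of 8 were higher at day 1 without LIF (Pou3f1 and Sall2, 1.43% of all), 7 at day 3 (8.85% of all), 8 at day 5 (17.0% of all) and 8 at day 1 with RA (12.6% of all). Among scan 3 libraries 5 of 8 rose at day 5 against day 1 without LIF (16.7% of all) and 5 of 8 at day 2 with RA (7.26% of all). Against day 5, day 2 with RA was higher for Sall2 alone of the 8 (3.26% of all). In the fits given next with a share of all probe sets, each without 1 library, the counts of members and of all probe sets fell together. The count at day 1 was 0 without control high replicate 1 (0.0940% of all probe sets higher), control medium (0.141%) or the day 1 medium library (0.255%), and 1 without the day 1 low library (0.356%). The count at day 3 was 3 without either of those controls (3.40% and 3.54%) and 4 without any single day 3 library (3.30% to 4.16%). Within scan 3, day 2 with RA against day 1 gave 1 without the day 2 RA low library (1.32%), 2 without the medium one (1.95%) and 3 without the day 1 low (3.74%) or medium (3.03%) library. The Sall2 call against day 5 was lost without any single scan 3 library other than the high gate ones.

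**Figure D3:**
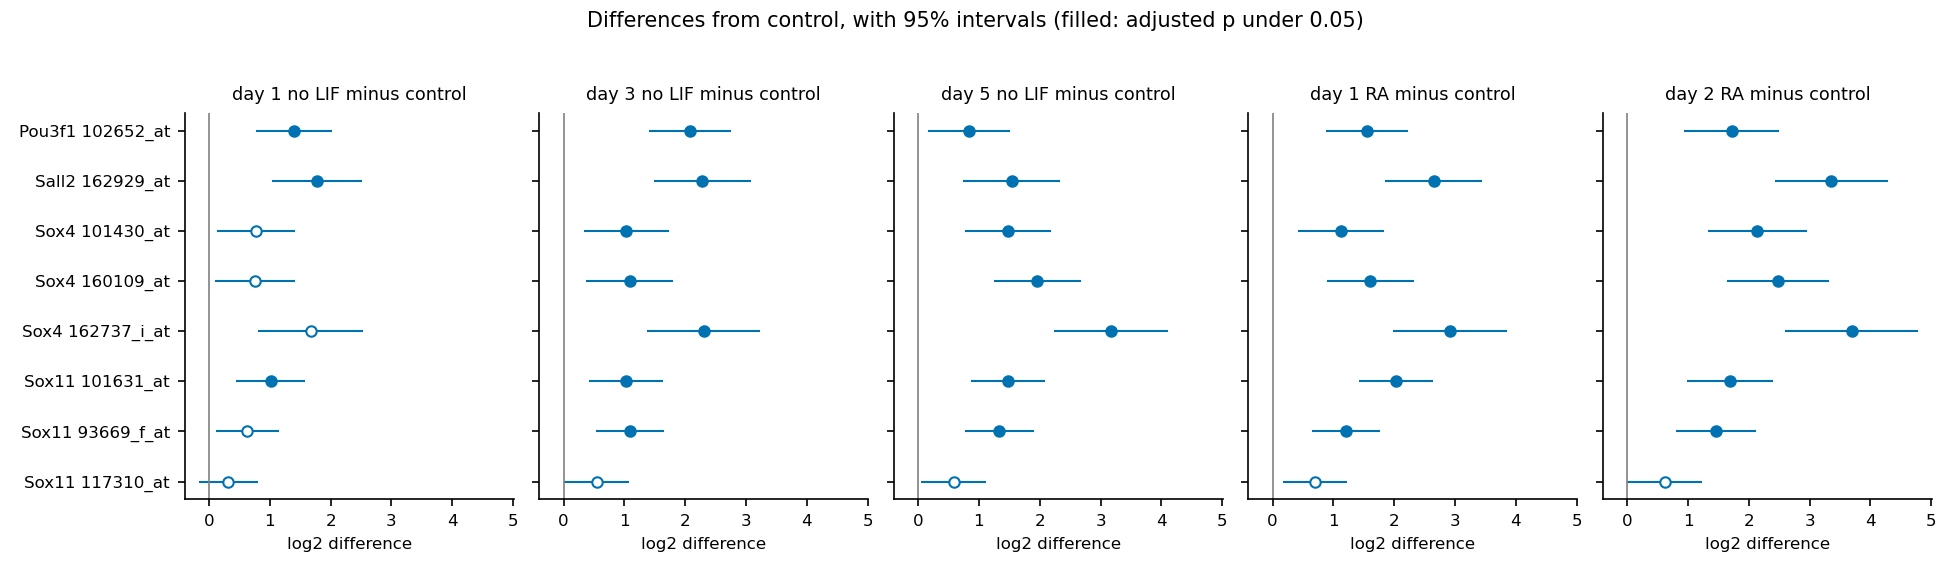
Log2 difference from control of the 8 tested probe sets in each of the other 5 arms (limma, arm and gate, 18 samples), with 95% intervals, filled where the adjusted p is under 0.05. Sox11 117310_at is open in all 5 panels, and Sox4 162737_i_at reaches 3.69 at day 2 with RA.

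Scan day and arm overlap in part. For day 1 without LIF against control, a scan-day block leaves the single pair of libraries scanned together on scan 1, of which the day 1 library is the doubted one. That pair differed by 0.32 for Pou3f1, 3.03 for Sall2, 1.22, 1.63 and 3.02 for Sox4 (101430_at, 160109_at, 162737_i_at) and 0.27, 0.39 and 0.54 for Sox11 (101631_at, 93669_f_at, 117310_at). With scan day as a block, Sall2 (adjusted p = 0.00349) and 2 Sox4 probe sets passed in that comparison, and Sall2 and all Sox4 probe sets also passed at day 5 and at day 2 with RA. The block estimates for day 5 and day 2 with RA go through the same pair. Day 3 without LIF and day 1 with RA share no scan day with any control, or with any day 1 or day 5 library without LIF. Scan day and arm cannot be told apart in those comparisons. Without both scan 1 libraries, a setting chosen after seeing the data, 8 of 8 members were higher at day 3 than in control cells, where 10.1% of all probe sets were.

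The number of members called higher with RA at day 1 changed with the doubted library. Sox11 101631_at was higher at day 1 with RA than at day 1 without LIF by 1.01 ± 0.25 (adjusted p = 0.0267), the only member past the test with all libraries, where 3.24% of all probe sets were higher. The doubted library was singled out after the data were seen, in part for likeness to RA libraries over probe sets that include the members. Its omission from the arm without LIF therefore favours larger differences with RA, and the resulting counts are a description. Without that library 6 of 8 were higher, where 9.78% of all probe sets were. They were Sall2 (1.21 ± 0.24, adjusted p = 0.00545), Sox4 160109_at (1.19 ± 0.18, adjusted p = 0.000524) and 162737_i_at (1.63 ± 0.28, adjusted p = 0.00234), and Sox11 101631_at (1.03 ± 0.27, adjusted p = 0.0172), 93669_f_at (0.70 ± 0.23, adjusted p = 0.0483) and 117310_at (0.57 ± 0.17, adjusted p = 0.0447). With all libraries the differences of Sall2, Sox4 160109_at and 162737_i_at were 0.88, 0.85 and 1.24, and those of Sox11 93669_f_at and 117310_at were 0.58 and 0.38. Sox4 101430_at gave 0.63 ± 0.22 without the library (adjusted p = 0.0666) and 0.35 with it. Without any other single library of the 2 arms, 0 of 8 passed, where 0.403% to 0.926% of all probe sets were higher. Pou3f1 differed by 0.15 ± 0.28 with the library (adjusted p = 0.780) and 0.05 ± 0.29 without it (adjusted p = 0.930). Its 3 RA signals (44.5 to 54.9) lie inside the range of the 4 libraries without LIF (38.9 to 55.1). Within scan 2, day 1 with RA against day 3 without LIF, groups that differ in both time and agent, gave Sox11 101631_at higher by 1.00 ± 0.15 (adjusted p = 0.0315, 0.805% of all probe sets higher, a call lost without any 1 of the 6 libraries) and Pou3f1 at -0.53 ± 0.13 (adjusted p = 0.0868).

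**Figure D4:**
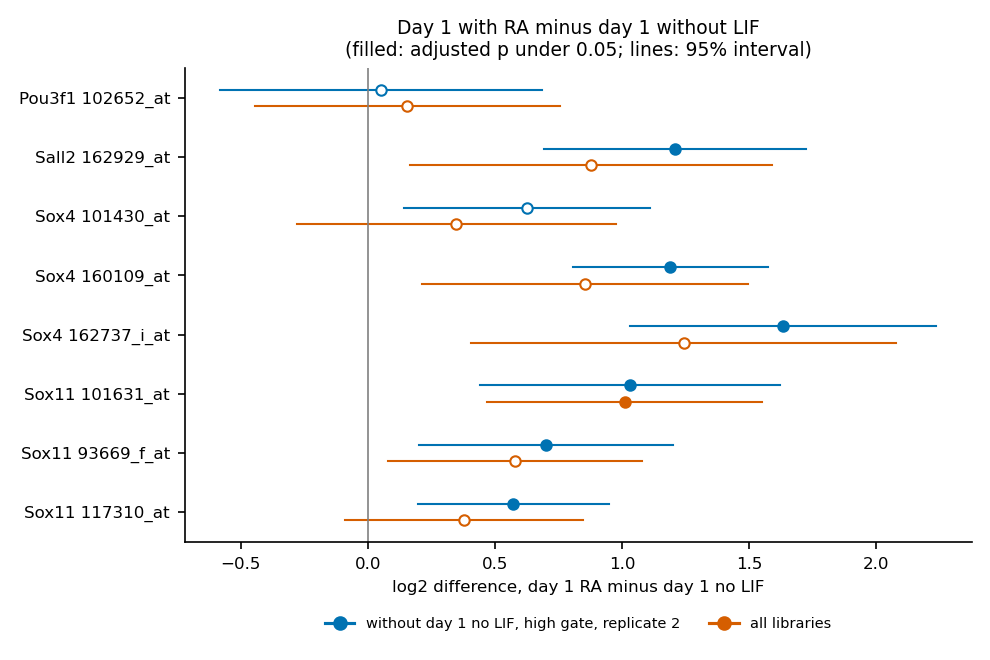
Log2 difference of day 1 with RA minus day 1 without LIF for the 8 tested probe sets, without the doubted day 1 library and with all libraries, as points with 95% intervals, filled where the adjusted p is under 0.05. With all libraries 1 of 8 is filled and without the doubted one 6 of 8, and Pou3f1 stays near 0 in both. The doubted library was singled out after the data were seen, in part for its likeness to RA libraries.

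Day 3 was on scan 2, while day 5 and the day 1 libraries other than the doubted one were on scan 3. Scan day and time thus cannot be told apart in the comparisons with day 3 that follow. Without the doubted library, more members passed between neighbouring days without LIF. At day 3 against day 1 without LIF, Sall2 rose by 0.84 ± 0.24 (adjusted p = 0.0393), Sox4 160109_at by 0.67 ± 0.18 (adjusted p = 0.021) and Sox4 162737_i_at by 1.02 ± 0.28 (adjusted p = 0.032), 3 of 8 where 9.21% of all probe sets rose. With all libraries 0 of 8 passed, where 1.82% of all did, and the 3 differences were 0.50, 0.33 and 0.63. At day 5 against day 3, again without the doubted library, the Sox4 probe sets 160109_at (0.88 ± 0.18, adjusted p = 0.00229) and 162737_i_at (0.87 ± 0.28, adjusted p = 0.0465) were higher, where 11.5% of all probe sets were, while Pou3f1 and Sall2 were lower as given above. With all libraries these Sox4 differences had the same size and did not pass (adjusted p = 0.0581 and 0.184), and 9.24% of all probe sets were higher. From the arm fit, Pou3f1 ordered the arms as control, day 5, day 1 without LIF, day 1 with RA, day 2 with RA and day 3, and Sall2 as control, day 5, day 1 without LIF, day 3, day 1 with RA and day 2 with RA. With all libraries, in both orders the only neighbours past the test were control and day 5. For Sox11 101631_at the order was control, day 1 and day 3 without LIF, day 5, day 2 with RA and day 1 with RA, and only control and day 1 without LIF differed.

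No difference between the Oct4 gates passed the test in the tested members. Low minus high gate differences of the 8 tested probe sets stayed within -0.26 and 0.23, and 0 of 14900 probe sets passed (percent called 0), with 808 (5.42%) at an unadjusted limma p under 0.05 and no member among them. Without the doubted library, a high gate one, these differences ran from -0.33 (Pou3f1) to 0.39 (Sox4 162737_i_at), and 0 probe sets passed. Medium against high gave 0 calls and 715 (4.80%) at an unadjusted p under 0.05, and the low minus high difference in the slope per day gave 0 and 388 (2.60%), again with no member among them. Single arms showed larger gaps in Sox4 162737_i_at, whose low minus high gate difference was 1.00 at day 3 and 0.65 at day 5 but -0.07 at day 1 with RA, with 1 library a gate and no test. At day 1 without LIF it was -0.85 against the mean of both high gate libraries and -0.13 against replicate 1 alone. The gates themselves differed in Pou5f1 at day 5, with 527, 663 and 901 in the low, medium and high gate. At day 1 without LIF, Pou5f1 was 2320, 2410 and 2520 in the low, medium and high (replicate 1) gates. In the high gate alone, day 1 without LIF against control gave 0 calls with limma and 768 probe sets (5.15%) at an unadjusted p under 0.05, among them Pou3f1, Sall2 and Sox4 162737_i_at. Without the doubted library that comparison rests on 1 day 1 library, so its calls are not given. The differences of Pou3f1, Sall2 and Sox4 162737_i_at were then 1.00, 1.00 and 1.63.

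Other genes of the postimplantation or formative epiblast had their largest count of higher calls at day 3, a difference between arms that was not tested. Of 20 listed genes 16 were on the arrays and 15 were tested, and 8 were higher and 0 lower at day 3 than in control cells, with a median difference of 1.16, where 6.94% of all 9833 genes were higher and 5.80% lower. At day 1 without LIF 2 were higher and 0 lower, with a median of 0.67 (1.21% and 1.07% of all genes), and without the doubted library 5 were higher, where 1.43% of all probe sets were. At day 5 the counts were 4 higher and 3 lower, with a median of 0.23 (17.2% and 15.2% of all genes). At day 1 with RA they were 4 and 0 (11.0% and 9.95% of all genes), and at day 2 with RA 3 and 1 (8.79% and 8.40%). Fst, which encodes the activin antagonist follistatin, was higher at day 5 by 4.03 ± 0.42 and at day 2 with RA by 3.09 ± 0.49. The mean control signal of Fst, 16.2, lies under the chip A filter cut of 23.9, so it passed that filter only through arms where it is higher. Utf1, a chromatin-bound factor of pluripotent cells, gave -2.71 ± 0.28 at day 5 and -1.66 ± 0.33 at day 2 with RA, and Tcf15, a helix-loop-helix factor that primes cells for exit from the naive state, gave -2.07 ± 0.23 at day 5, each past the test.

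**Figure D5:**
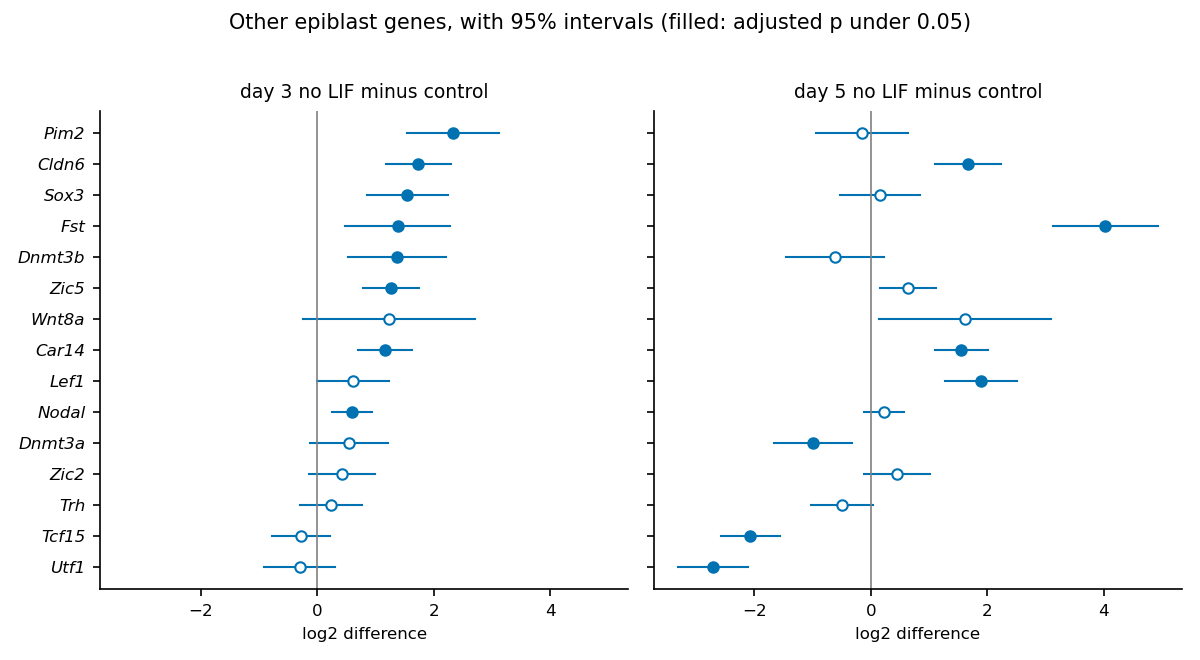
Log2 difference from control of the 15 other tested epiblast genes at day 3 and day 5 without LIF, with 95% intervals, filled where the adjusted p is under 0.05. At day 3 the 8 filled points all lie right of 0, and at day 5 there are 4 on the right and 3 (Dnmt3a, Tcf15 and Utf1) on the left.

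Relatives of the 5 genes did not share 1 direction, and their counts stand beside the shares of all genes given above. Of 11 other Sox genes tested (17 listed), 1 was higher and 1 lower at day 3, 1 and 3 at day 5, 2 and 1 at day 1 with RA, and 2 and 2 at day 2 with RA. Sox2, the SoxB1 partner of Oct4, was lower in all 4 arms, from -0.74 ± 0.17 at day 1 with RA to -2.51 ± 0.17 at day 5, while Sox3, a SoxB1 factor of the neural plate, was higher at day 3 (1.55 ± 0.32) and with RA (1.62 ± 0.32 at day 1 and 2.18 ± 0.38 at day 2), and at day 5 differed by 0.16 ± 0.32. Of the 3 other POU genes tested only Pou5f1 passed, with -1.81 at day 5 and -2.47 at day 2 with RA. Of the 2 other Spalt genes tested, Sall3 was higher at day 5 (0.98) and at day 1 with RA (0.68), and Sall4, a pluripotency factor, passed in none of the 4 arms. Among 17 tested genes of FGF ligands, receptors and feedback, 2 were higher and 2 lower at day 3, 3 and 3 at day 5, 6 and 1 at day 1 with RA, and 3 and 2 at day 2 with RA. Fgf4, the autocrine ligand of stem cells, was lower at day 5 (-2.77 ± 0.38), at day 1 with RA (-1.71 ± 0.38) and at day 2 with RA (-2.72 ± 0.45). Dusp6, a phosphatase induced by FGF signalling through ERK, was higher by 1.25 ± 0.37 at day 3, 1.57 ± 0.37 at day 5, 1.62 ± 0.37 at day 1 with RA and 2.06 ± 0.43 at day 2 with RA. The receptor gene Fgfr1 was higher at day 5 (2.13) and in both RA arms (1.31 and 1.51).

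Neuronal genes, some of them known targets of SoxC factors in neurons, had few members past the test in each direction. Of 11 tested (14 listed), 3 were higher and 0 lower at day 3 (6.94% and 5.80% of all genes), 2 and 4 at day 5 (17.2% and 15.2%), 2 and 1 at day 1 with RA (11.0% and 9.95%), and 3 and 2 at day 2 with RA (8.79% and 8.40%), counts from which nothing particular to the list is read. Neurod1, a proneural helix-loop-helix factor, gave -2.08 ± 0.21 at day 5 and -1.52 ± 0.25 at day 2 with RA, and Elavl3, a neuronal RNA-binding protein, -2.65 ± 0.27 and -2.37 ± 0.31, all past the test. Ncam1, a neural cell adhesion molecule, was higher at day 5 (0.61) and at day 2 with RA (1.67). The summed signal of the 11 was 2150 to 2390 at day 5 and 2810 to 2970 at day 2 with RA, against 2600 to 3020 in control cells.

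Markers of cell types moved beside these genes. At day 3, day 5, day 1 with RA and day 2 with RA, in that order, 6.94%, 17.2%, 11.0% and 8.79% of all genes were higher. In the same order 5.80%, 15.2%, 9.95% and 8.40% were lower, and nothing particular to a list is read from single calls below. The summed signal of 6 tested stem cell markers of 7 listed was 7960 to 8690 at day 3, 3110 to 3170 at day 5, 8860 to 10100 at day 1 with RA and 6600 to 7960 at day 2 with RA, against 14400 to 17600 in control cells, and 5, 6, 4 and 6 of them were lower. Of 5 tested neural progenitor markers of 9 listed, 2, 2, 3 and 2 were higher in those arms and 1 (Sox1) was lower at day 5, with sums of 389 to 405, 471 to 584, 342 to 388 and 559 to 611, against 152 to 214 in control cells. Most of the day 5 sum came from Cdh2 and Nes (means 278 and 206, against 7.22 and 78.1 in control cells). Sox1, Pax6 and Ncan averaged 18.2, 9.46 and 26.7 there, against 38.3, 19.8 and 38.0, and the median difference of the 5 was -0.44. All 6 tested primitive streak and mesoderm markers of 10 were higher at day 5 (sum 1470 to 1950), against 179 to 226 in control cells, and 1 of 6 was higher in each of the day 3, day 1 RA and day 2 RA arms. Lhx1, Eomes and Pdgfra averaged 18.4, 26.2 and 29.7 in control cells, near the chip A filter cut of 23.9, and 411, 277 and 406 at day 5. The filter thus kept them in part for their day 5 values, and the day 5 count only describes the markers tested. Of 8 tested endoderm markers of 10, 1, 3, 1 and 3 were higher and 0, 1, 1 and 0 lower, with sums of 556 to 1010, 430 to 603, 519 to 667 and 951 to 1380, against 433 to 511. Of 5 tested markers of fibroblasts, the feeder cell type, of 9 listed, 1, 3, 1 and 1 were higher and 0, 0, 1 and 1 lower, with sums of 524 to 608, 718 to 814, 536 to 581 and 642 to 803, against 404 to 548. The markers Esrrb, Ttr, Apoa1, Mixl1, Mesp1, Gsc, Evx1, Pax3, Fabp7, Zic1, Hes5, Col3a1, Postn, S100a4 and Lum were not tested, and no signal in the tables is 0. Beta-actin's 3' over 5' signal, a measure of RNA integrity and labelling, averaged on the log2 scale 1.04, 0.93 and 0.86 at days 1, 3 and 5 without LIF and 1.33 and 0.83 at days 1 and 2 with RA, against 1.22 in control cells. The part of these shifts in the results for the 5 genes was not tested. In sorted bulk samples, fewer cells of a type and less RNA per cell cannot be told apart.

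The genes most like each member over the 18 samples, among 13418 candidate probe sets, were named by Pearson r of log2 signals, as a description of samples that share arms and scan days. For Pou3f1 they were Slc43a2 (0.910, Spearman rho 0.761), Hnrnpd (0.891, rho 0.612) and Trip6 (0.884, rho 0.907). For Sall2 they were Eml1 (0.956), Selenok (0.953) and Lrp2 (0.946). For Sox4 (162737_i_at) they were Car2 (0.960), Myh10 (0.956) and Tgfbr1 (0.955), and for Sox11 (101631_at) they were Ints1 (0.920), Tab2 (0.915) and Smarca4 (0.911). Between members, Sox4 162737_i_at correlated with Sall2 at 0.832 and with Sox11 101631_at at 0.792, and Pou3f1 correlated with Sall2 at 0.642 and with Sox4 162737_i_at at 0.436.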

How the data were processed

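The values deposited by the authors are signal intensities, 1 per probe set and array, computed with MAS5 per the submitters' processing notes (version not given in the sources used here). Their mean after trimming 2% from each side is 150.1 on every chip A array and 150 on every chip B array, so no further normalization was applied. Detection calls were not analysed here. Values were taken as log2(signal + 4) on chip A and log2(signal + 7) on chip B from the deposited intensity. The brighter 60% by mean value, 14900 of 24833, were tested in R 4.3.3 with limma 3.58.1 (lmFit, eBayes, additive arm and gate, all 18 samples; statmod 1.5.0 for random blocks), with p adjusted per chip (Benjamini-Hochberg) and called past the test under 0.05. Comparisons within a scan day used only its libraries. Values after ± are standard errors. On simulated data 129 of 132 probe sets changed by 2 on the log2 scale and 96 of 134 changed by 1 were recovered at day 5 against control.

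The members and lists (epiblast, Sox, POU, Spalt, FGF and neuronal genes, and markers of stem cells, feeders, endoderm, streak and neural progenitors) were chosen with earlier results of these data known. Named genes are the members, the 3 most correlated genes of each, up to 3 genes of smallest p per list, Pou5f1 and Cyp26a1. Gene names come from the platform annotation, updated by Entrez identifier, and 21414 probe sets had 1 symbol, 574 several and 2845 none. A list gene is read from 1 probe set, chip A first and then the brightest. Promoters are from RefSeq on GRCm38.p6, and the array annotation's coordinates were not used. Alternatives changed the pseudocount, filter, normalization, gate term, scan-day block, array weights, arms fitted and each library in turn.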

Additional observations from a re-analysis of the deposited data

Results flagged for a closer look

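In 10 groups of 4 samples (the day 1 arm without LIF, 1 group per member probe set), 2 highest values stood apart by Dixon's ratio of the gap to the nearest sample over the range, above its 95% critical value for 4 samples. Chance flags about 1 group in 20. Both came from the high gate replicate 2 library, which also went against its label in Cyp26a1. Sox4 162737_i_at was 894 there, against 275 to 330 in the other 3 libraries (ratio 0.851), and Sox11 117310_at was 863, against 475 to 505 (ratio 0.895).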

How the results depend on the processing

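Of 1160 recomputed log2 differences of 49 results past the test, over 29 settings, 997 stayed past it in the same direction, 162 kept the direction only and 1 reversed, Pou3f1 at day 5 against control (-0.34 with scan day as a fixed block, 0.84 in the fit given above). Of 545 recomputed values of 23 results not past it, 491 kept direction and side, 50 passed and 4 reversed, Sall2 at day 5 against day 1 within scan 3 (-0.043 after quantile normalization, and -0.29 to 0.36 without 1 library, below 0 without day 1 high replicate 1 or day 5 high replicate 1) and Pou3f1 at day 2 with RA against day 1 within scan 3 (-0.10 without day 1 low, and up to 0.52 without another library). Members past the test at day 1 without LIF against control (3) were 0 without a brightness filter, with scan day as a random block or with only the 2 arms fitted, and 0 to 3 when 1 library was left out (0 without control high replicate 1, control medium or day 1 medium, 1 without day 1 low). At day 3 (7) they were 3 with the random block or only 2 arms and 4 with the top 40% of probe sets, a filter that tests 5 members, and 3 to 7 without 1 library (3 without control high replicate 1 or control medium, 4 without any day 3 library). At day 5 and day 2 with RA (7 each) the top 40% gave 4, and leaving out 1 library gave 6 to 8 at day 5, 6 to 8 at day 1 with RA and 6 to 7 at day 2 with RA. For day 1 with RA against day 1 without LIF (1), no filter, the random block and only 2 arms gave 0, the top 40% gave 2, array weights 6, omission of both scan 1 libraries (chosen after seeing the data) 7, and omission of 1 library 0 to 6, with 0 for each other library of either arm. Over those fits without 1 library, 149 to 2571 of all 14900 probe sets were called in either direction, where 972 were with all libraries. Against control that range was 44 to 472 at day 1 without LIF, 871 to 2264 at day 3, 3132 to 4810 at day 5 and 1686 to 3431 at day 1 with RA. Shares under the other settings are not given here, so the member counts in this section are a description. Within scan 3, day 2 with RA against day 1 (5) gave 1 to 5 without 1 library (1 without day 2 RA low, 2 without day 2 RA medium, 3 without day 1 low or medium), day 5 against day 1 (5) gave 4 to 5, and day 2 with RA against day 5 (1) gave 0 with a pseudocount of 1, no filter or the top 40%, and 0 to 1 without 1 library. Within scan 2, day 1 with RA against day 3 (1) gave 2 with a pseudocount of 32 or the top 40%, 0 without a filter and 0 without any 1 library. The slope per day (5) gave 3 to 5 (3 without control medium or day 5 medium). The low against high gate count stayed 0. In the high gate at day 1 against control (0 calls), a replicate block gave 0. Leaving out 1 library there leaves a single library in 1 of the 2 groups, so calls of those fits are not given. Without day 1 high replicate 1 that single library is the doubted one. The shared numbers there are 2 pairs whose libraries' deviations correlate at 0.17 on chip A and 0.11 on chip B, with replicate 2 of both on scan 1, and they are not treated as pairs. A fixed scan-day block has no estimate for day 3 or day 1 with RA. The cause of these changes was not tested, except that the top 40% filter tests 5 of the 8 members.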
